A study of Mus musculus with 9 samples.

Results

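The hypothalamus of mice on 3 feeding regimens was described from 3 of the 9 arrays of the series, which are all the arrays labelled as hypothalamus, 1 for each regimen. Of the 16358 named genes on the array, 12512 were well above background, by the scanner's own flag, on at least 1 of the 3. Male wild-type C57BL/6J mice of 8 to 9 weeks, with no transgene or drug, were fed in one of 3 ways. Mice of the AD group always had food. Mice of the RFR group went without food on one day and ate freely on the next, in alternation, and the periods changed over in the evening. Mice of the CR group received, spread over 2 days, a fixed part of what the RFR mice had eaten on a feeding day. All were killed at 14 h on day 8 under ether and perfused with cold saline, and the labels do not say whether the RFR mice were then in a fasting or a feeding period. The tissue was cut from a 1 mm coronal slice between 1.5 and 2.5 mm behind bregma, and RNA of 4 mice was pooled for each array, of which 400 ng was labelled. A pooled array has no replicate, so no test between diets was possible and every difference below is a measured value for 1 pool against another.

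The hypothalamus sets food intake, energy use, body temperature, the daily rhythm and the output of the pituitary. In its arcuate nucleus, neurons that make Npy and Agrp drive eating and neurons that make Pomc and Cartpt restrain it, and both read leptin, insulin and ghrelin from the blood. Hcrt (orexin) and Pmch (melanin-concentrating hormone) neurons of the lateral hypothalamus add wakefulness and food seeking, and the neighbouring tanycytes, which line the third ventricle, carry hormones and nutrients between blood, cerebrospinal fluid and neurons.

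Each level is the log2 of a processed signal over its array's 75th percentile, given in the order AD, RFR, CR, and a difference of 1 is 2-fold. The level of one gene's probe says nothing about that of another. A gene list is described by the median difference of its members above or below the median of all genes, and by how many members lay above or below that all-gene median. For all genes the median CR minus AD was -0.03, RFR minus AD -0.06 and CR minus RFR 0.04, and in the authors' deposited table these were 0.09, 0.02 and 0.08. CR minus AD and RFR minus AD share the AD array, so a like difference in both is not separate evidence. In bulk tissue, fewer cells of a type and less RNA per cell cannot be told apart.

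The dissection label was borne out by the genes that define hypothalamic nuclei. The summed signal of the paraventricular and supraoptic markers (Oxt, Avp, Trh and Sim1) was 7.46, 7.55 and 7.63 on a log2 scale, against -2.30 to 3.65 on the 6 arrays of amygdala and prefrontal cortex. Lateral hypothalamic markers summed to 8.02, 7.71 and 8.18 against 3.29 to 4.70, and ventromedial markers to 5.27, 5.17 and 5.23 against 2.36 to 2.82. Genes of cortical excitatory neurons were lower than in the other regions, at 4.35, 4.19 and 4.47 against 6.93 to 8.12. The pituitary genes Prl and Gh were well above background on the RFR array and on neither of the others.

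Measurement error sets how small a difference can be read. The error of a difference reported by the scanner's software had the same median, 0.204, in every comparison. It was also 0.204 for the genes Hbb-bt in RFR minus AD and Slc13a4 in CR minus RFR. How far this reported value reflects error measured on these arrays was not tested. Single-gene differences of that size or smaller are within the reported error. Probes printed 10 times on an array had a median SD of 0.074, 0.064 and 0.052 between their spots, and 60.8%, 59.8% and 62.2% of spots were well above background. Different probes of the same gene had a median SD of 0.204 in the CR minus AD difference, against 0.12 in RFR minus AD and 0.143 in CR minus RFR. The spot SDs are of a level on 1 array. The SDs between probes are of a difference between 2 arrays, so their sizes are not directly comparable. These errors leave out the spread between mice and between pools. The AD array lay on slide 1 and the RFR and CR arrays on slide 2. In either comparison with AD the slide changes with the diet and the pair cannot be told apart, while CR minus RFR was measured within 1 slide.

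For CR minus AD the slides can be set beside those of the other regions. Prefrontal cortex had the same layout, AD on slide 1 and CR on slide 2, and amygdala did not, with CR alone on slide 3. Across 6241 genes with signal above the median, CR minus AD in hypothalamus and in prefrontal cortex had a Pearson r of 0.85, whereas hypothalamus and amygdala, over 6252 genes, had one of -0.04. For RFR minus AD, where the prefrontal cortex arrays shared a slide, r was 0.59 with prefrontal cortex and -0.11 with amygdala, and for CR minus RFR it was 0.68 and 0.37. The points are genes, not replicates, and the regions of a diet share the pool of mice, the array design and probe sequences. Values from prefrontal cortex and amygdala are therefore given beside several of the larger CR minus AD differences below, but not beside all of them. The part of the slide in them was not tested.

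**Figure D1:**
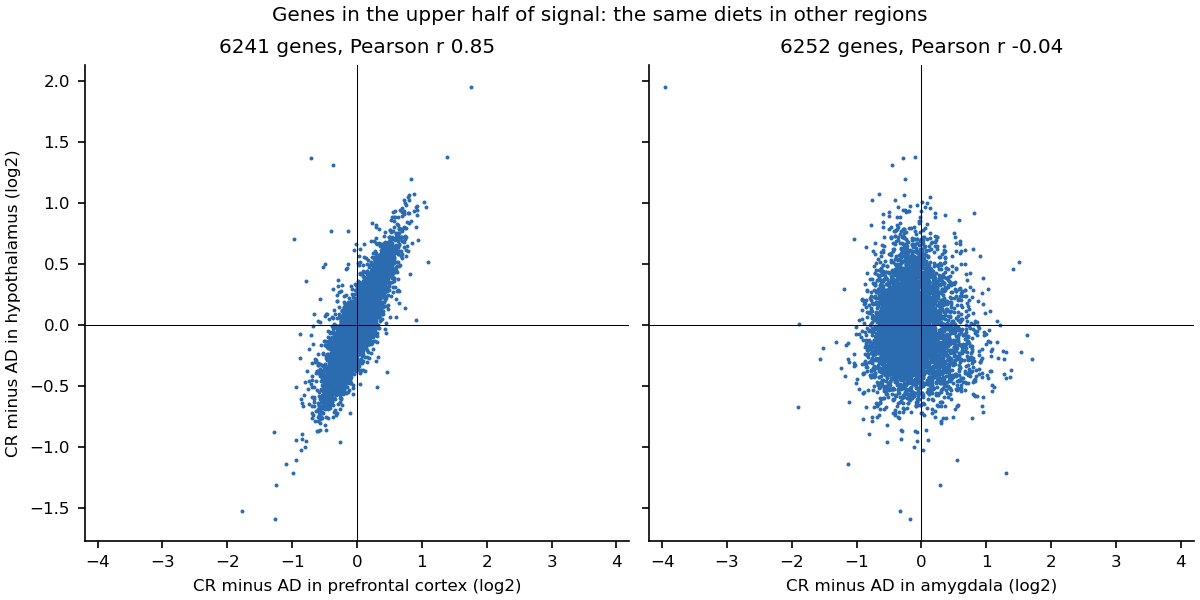
Each point is a gene with signal above the median. CR minus AD (log2) in hypothalamus is on the vertical axis, and the same difference in prefrontal cortex (left) or amygdala (right) is on the horizontal axis. The cloud follows the diagonal for prefrontal cortex (r 0.85 over 6241 genes) and has no slope for amygdala (r -0.04 over 6252 genes).

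Among the peptides that drive eating, those of the lateral hypothalamus separated the 2 restricted diets, with CR above RFR. Hcrt read 6.92, 6.62 and 7.19, so that the AD array lay between the RFR and CR arrays, and CR minus RFR was 0.57. Pmch read 5.74, 5.61 and 6.25, with CR highest and CR minus RFR at 0.64. The 7 lateral hypothalamic markers, which include both, had a median of -0.31 in RFR minus AD, with 6 below all genes, and of 0.37 in CR minus RFR, with 5 above. The arcuate hunger peptides differed less. Npy read 1.50, 1.64 and 1.84, and Agrp, an antagonist of melanocortin receptors, read 0.76, 1.13 and 0.98, both lowest on the AD array and differing by at most 0.37 between any pair of arrays.

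The AD array was the high one for a group of peptide precursors from both sides of the hunger and satiety division. Pomc, the precursor of alpha-MSH, read 4.88, 4.07 and 3.92, with RFR and CR 0.15 apart (CR minus RFR -0.15) and a CR minus AD of -0.26 in prefrontal cortex and -0.52 in amygdala. Gal, which encodes the feeding-promoting peptide galanin, read 4.92, 4.42 and 4.40 with a gap of 0.02 between RFR and CR. Pdyn, the dynorphin precursor, read 4.79, 4.28 and 4.29. Kiss1, whose peptide starts the release of gonadotropin-releasing hormone, read -1.23, -2.11 and -2.24, and its CR minus AD of -1.01 was just past 2-fold, beside -0.74 in prefrontal cortex and -0.54 in amygdala. Ghrh, the growth hormone-releasing peptide, and Gnrh1 followed the same order at smaller size, with Ghrh at 2.38, 2.0 and 1.99 and Gnrh1 at 0.02, -0.31 and -0.44. In each of these 6 genes the RFR and CR arrays lay closer to each other than either did to AD, which is also the layout of the slides.

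Other satiety peptides had no common direction. Cartpt read 4.31, 3.94 and 4.34, low on the RFR array alone, and the neurotensin gene Nts read 2.82, 2.42 and 2.67 in the same pattern. Trh, which starts the thyroid axis and lowers intake, read 2.38, 2.32 and 2.02 and was low on the CR array alone. Bdnf, at 0.11, 0.09 and 0.03, and the tachykinin precursor Tac1, at 3.33, 3.28 and 3.25, differed by under 0.1 in every comparison. Of 10 satiety peptides, 4 lay above all genes in CR minus AD and 4 in RFR minus AD, with medians of -0.05 and -0.09. Of the posterior pituitary hormones, Oxt read 6.69, 6.87 and 6.90 and Avp 6.07, 6.03 and 6.21.

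**Figure D2:**
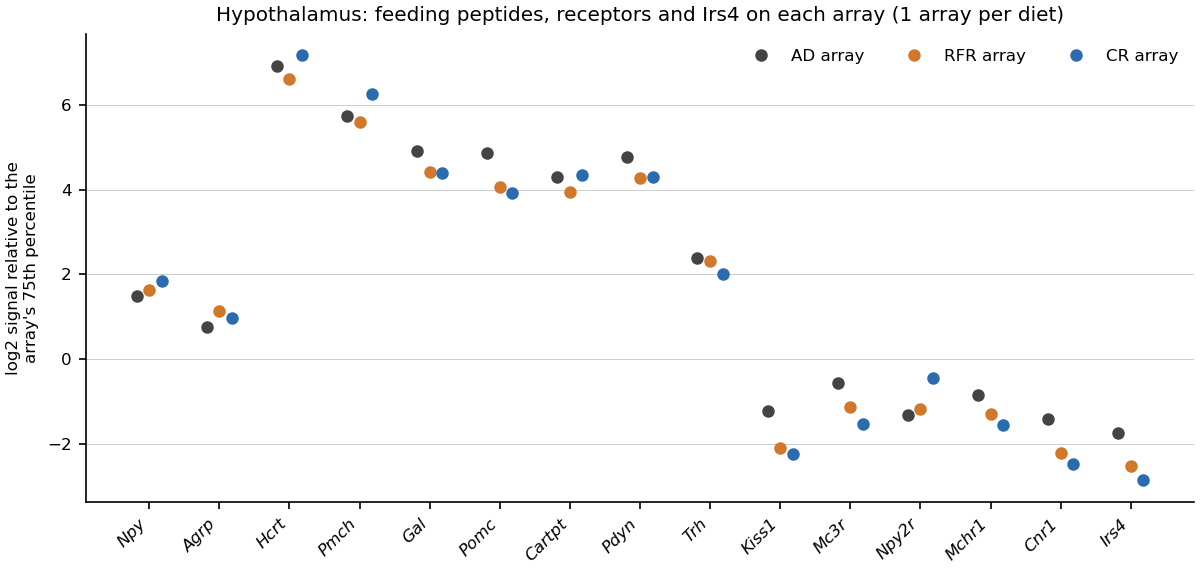
Log2 level (over each array's 75th percentile) of 15 feeding peptides and receptors on the AD, RFR and CR hypothalamus arrays, 1 point per array and no error bar because there are no replicates. Pomc, Gal, Pdyn, Kiss1, Mc3r, Mchr1, Cnr1 and Irs4 are highest on the AD array, and Hcrt, Pmch and Npy2r are highest on the CR array.

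The receptors that read these peptides included several that were lowest on the CR array, intermediate on the RFR array and highest on the AD array. Mc3r, a melanocortin receptor, read -0.57, -1.14 and -1.53, a CR minus AD of -0.96, beside -0.68 in prefrontal cortex and 0.25 in amygdala. Mc4r, the receptor whose loss causes obesity, read -1.34, -1.66 and -1.81. Mchr1, the receptor for melanin-concentrating hormone, read -0.85, -1.29 and -1.55, highest on the AD array. Receptors for Npy went the other way. Npy1r read -2.75, -2.35 and -2.29, and Npy2r, the inhibitory receptor that also binds peptide YY, was high on the CR array alone at -1.33, -1.18 and -0.45. The feeding-inhibiting receptors Htr2c, at 0.02, 0.13 and 0.52, and Ntrk2, at 3.45, 3.35 and 3.88, were also highest on the CR array. Over all 18 measured receptors there was no net direction, with 10 above all genes and 8 below in CR minus AD and a median of 0.12.

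The cannabinoid receptor Cnr1, which promotes eating, was 2-fold lower in CR, reading -1.43, -2.22 and -2.49, with a CR minus AD of -1.32 in prefrontal cortex and 0.30 in amygdala. The other endocannabinoid genes did not share its size: the monoacylglycerol lipases Abhd6 and Abhd12 had a CR minus AD of -0.69 and -0.44, and Mgll one of 0.15. Lnpep, the aminopeptidase that cleaves oxytocin, read -2.14, -3.24 and -3.43, past 2-fold in both comparisons with AD and with RFR and CR close together.

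Genes of leptin and insulin signalling lay mostly below all genes on the CR array. In CR minus AD, 15 of 18 measured members were below and the median was -0.19, with -0.15 in prefrontal cortex and -0.19 in amygdala. CR minus RFR, measured within a slide, gave 15 of 18 below again and a median of -0.14, while RFR minus AD had 10 below and 8 above. The insulin receptor substrate Irs4 had the largest difference, at -1.74, -2.53 and -2.86, and it was the only list member past 2-fold (CR minus AD -1.12, where 0.689% of all genes were at least 2-fold lower), beside -0.80 in prefrontal cortex and 0.13 in amygdala. Socs3, the feedback inhibitor of the leptin receptor, read -0.26, -0.05 and -0.59, so it was lowest on the CR array. Stat3, which carries the leptin signal to the nucleus, read 2.31, 2.09 and 1.94, and the kinase Akt2 0.74, 0.54 and 0.27.

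Energy sensors of the AMPK and mTOR pathways were below all genes in CR and not in RFR. In CR minus AD 15 of 22 lay below with a median of -0.14, in CR minus RFR 17 of 22 with one of -0.12, and in RFR minus AD 11 lay on each side. Ppargc1a, a coactivator that drives mitochondrial genes, read 1.8, 1.18 and 1.11, and the mTOR inhibitor Deptor 0.84, 0.47 and 0.31. No member reached 2-fold, and the kinase Mtor itself read 0.43, 0.58 and 0.48.

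The reproductive and growth hormone axes held high and low members side by side. Beside Kiss1 and Gnrh1, the estrogen receptor Esr1 read -1.13, -1.55 and -1.68 and the kisspeptin receptor Kiss1r -2.38, -2.59 and -3.00, each lowest on the CR array. Somatostatin (Sst), which blocks growth hormone release, read 4.43, 4.63 and 4.96, the neurokinin B receptor Tacr3 -1.82, -1.69 and -1.02, and the growth factor binder Igfbp2 -0.71, -0.69 and 0.05, each highest on the CR array. Of 19 measured members 11 were above all genes in CR minus AD, with a median of 0.22, and Kiss1 was the only one past 2-fold (0.689% of all genes were at least 2-fold lower).

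Tanycyte genes were below all genes in both comparisons with AD and level between CR and RFR. In RFR minus AD 10 of 12 lay below (median -0.35), in CR minus AD 9 of 12 (median -0.28), and CR minus RFR had a median of 0.01. The prefrontal cortex medians for the same genes were -0.29 and -0.30, although tanycytes are not cells of that region, and amygdala had 0.08 for RFR minus AD. The summed signal of the list was 3.91, 3.70 and 3.90, against 4.75 to 5.57 on the 6 arrays of the other regions. The list was thus lower in hypothalamus than elsewhere, and its medians cannot be read as a measure of tanycytes. Col25a1, a membrane collagen, read -2.43, -2.97 and -3.13, Fndc3c1 -2.03, -2.46 and -2.67, and the orphan receptor Gpr50 -4.01, -4.42 and -4.44. Vim, the intermediate filament of tanycytes, went the other way at 1.73, 1.75 and 2.24. Among thyroid axis genes, Dio2, the tanycyte enzyme that activates thyroid hormone and is known to respond to fasting, read -0.58, -0.69 and -0.60, and Dio3, which inactivates the hormone, -2.97, -3.52 and -3.48. The thyroid list as a whole had 8 of 13 members below all genes in CR minus AD and 8 of 12 in RFR minus AD, with medians of -0.11 and -0.04.

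The core clock was measured at 1 time of day, so the values describe a level and not a rhythm. Per1 read 2.17, 2.08 and 1.59 and Per3 -3.33, -3.38 and -4.10, both low on the CR array alone, while Per2 read -0.88, -0.35 and -0.78 and was high on the RFR array alone. Bhlhe41, a repressor of the clock loop, read -2.12, -2.47 and -2.93, and the activator Clock -0.15, 0.10 and 0.34. In CR minus RFR 16 of 21 clock genes lay below all genes, with a median of -0.14, and none was past 2-fold. The suprachiasmatic markers were lower in the same comparison, with 5 of 6 below and a median of -0.41. Their summed signal was 2.91, 3.05 and 2.63, against 1.81 to 2.41 on the 6 arrays of the other regions. They thus set hypothalamus apart less than the nuclear markers given above. Vip, the peptide that couples suprachiasmatic neurons, read -0.44, -0.34 and -0.97, and Rgs16, a G protein regulator of that nucleus, 1.98, 2.23 and 1.69. The clock and suprachiasmatic lists share no gene. The pieces came from the slice behind bregma described at the start. Whether that slice held the suprachiasmatic nucleus, or the CR piece less of it, was not tested. The values of these markers, Vip and Rgs16 included, therefore cannot be read as a measure of that nucleus.

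Glucocorticoid-induced genes lay mostly lower on the RFR array than on either of the others. In RFR minus AD 17 of 21 lay below all genes, with a median of -0.23 and medians of -0.18 in amygdala and -0.19 in prefrontal cortex. Of the 21, 3 were at least 1.5-fold lower, where 1.74% of all genes were. In CR minus RFR 16 of 21 lay above, with a median of 0.16 beside 0.20 in amygdala and 0.03 in prefrontal cortex, and 6 were at least 1.5-fold higher, where 2.19% of all genes were. Mt1, a metal-binding metallothionein, read 4.45, 4.27 and 5.39, and its CR minus RFR of 1.11 was the only one past 2-fold in the list (0.23% of all genes were at least 2-fold higher). Mt2, its neighbour, read 6.09, 5.68 and 6.29. Sult1a1, a sulfotransferase, read -0.24, -0.97 and 0.00, the lipase inhibitor Angptl4 1.41, 1.11 and 1.97, the lipid droplet gene Plin4 -0.51, -0.76 and 0.03, and the kinase Sgk1 2.95, 2.67 and 3.32, so that RFR was lowest and CR highest in each of these. Classic members did not all share this order. Fkbp5, the cochaperone that dampens the receptor, read -1.81, -1.68 and -2.01, Tsc22d3 2.73, 2.36 and 2.35, and Klf9 1.93, 1.27 and 1.07. The receptor gene Nr3c1 read -0.65, -0.78 and -0.97.

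Immediate early genes, which report recent neuronal activity, differed little. The median of 23 measured genes was 0.15 in CR minus AD and -0.04 in RFR minus AD. Fos read -0.12, -0.05 and 0.19 and Egr1 2.01, 2.26 and 2.17. Npas4, an activity-dependent factor, was lowest on the AD array at -2.75, -2.04 and -1.92, and Nr4a2 was highest on the RFR array at -1.25, -0.90 and -1.59.

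Cholesterol synthesis genes lay mostly below all genes on both restricted arrays. Its enzymes are induced by the transcription factor Srebf2 when sterols run low. In CR minus AD 19 of 25 members lay below all genes, with a median of -0.27, in RFR minus AD 18 of 24 with one of -0.14, and in CR minus RFR 15 of 24 with one of -0.09. The CR minus AD median was -0.19 in prefrontal cortex and -0.13 in amygdala. Of the members, 4 were at least 1.5-fold lower in CR minus AD, where 4.38% of all genes were. Mvd, which makes isopentenyl diphosphate, read 1.18, 0.64 and 0.25, with CR lowest, and its CR minus AD of -0.94 stood beside -0.84 in prefrontal cortex and -0.32 in amygdala. Squalene synthase, Fdft1, read 2.72, 2.31 and 2.13, in the same order. Early and late steps did not all share this direction. Hmgcs1, which condenses the first precursor, read 4.48, 4.41 and 4.81, Nsdhl -0.61, -0.50 and -0.15, and Tm7sf2 1.94, 2.01 and 2.35, each highest on the CR array. Of the regulators, Srebf2 read -0.16, -0.21 and -0.13 and Scap 4.38, 4.45 and 4.55, and the sterol-sensing Insig1 was lower on both restricted arrays at -0.83, -1.20 and -1.18.

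The DNA upstream of 4 of these genes is shown because their probes went in different directions, Mvd, Hsd17b7 and Insig1 lower on both restricted arrays and Hmgcs1 highest on the CR array. The sequences are the 250 bases before the annotated start from RefSeq on GRCm38.p6, read 5′ to 3′ in the direction of the gene. Capitals mark CCAAT and TCACNCCAC on either strand, the first the core of the NF-Y site and the second a form of the sterol response element. The windows are chr8:122443423-122443672 on the minus strand for Mvd, chr1:169969206-169969455 on the minus strand for Hsd17b7, chr5:28071162-28071411 on the plus strand for Insig1 and chr13:119690101-119690350 on the plus strand for Hmgcs1.
Mvd: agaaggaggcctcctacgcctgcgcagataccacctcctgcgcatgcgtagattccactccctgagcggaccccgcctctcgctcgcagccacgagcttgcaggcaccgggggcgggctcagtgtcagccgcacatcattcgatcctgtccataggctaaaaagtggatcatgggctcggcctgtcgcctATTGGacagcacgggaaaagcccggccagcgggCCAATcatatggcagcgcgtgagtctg
Hsd17b7: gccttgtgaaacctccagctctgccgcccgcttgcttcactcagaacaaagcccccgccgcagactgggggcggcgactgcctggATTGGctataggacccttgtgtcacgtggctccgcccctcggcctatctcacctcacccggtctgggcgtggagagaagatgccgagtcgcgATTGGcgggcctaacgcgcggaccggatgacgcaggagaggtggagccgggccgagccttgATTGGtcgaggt
Insig1: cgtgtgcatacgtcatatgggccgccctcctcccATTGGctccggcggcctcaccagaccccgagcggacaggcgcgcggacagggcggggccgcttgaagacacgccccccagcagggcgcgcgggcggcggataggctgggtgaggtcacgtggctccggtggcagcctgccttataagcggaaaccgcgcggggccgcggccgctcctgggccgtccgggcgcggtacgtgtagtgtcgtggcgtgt
Hmgcs1: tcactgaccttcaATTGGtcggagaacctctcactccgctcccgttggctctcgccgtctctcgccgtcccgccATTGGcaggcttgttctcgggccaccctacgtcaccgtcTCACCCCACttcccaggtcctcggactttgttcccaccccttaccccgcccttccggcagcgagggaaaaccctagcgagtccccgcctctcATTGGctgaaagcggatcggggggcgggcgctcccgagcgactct

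Windows from 250 bases before to 50 after the start were at hand for 18 genes of the sterol list. CCAAT was present on either strand in at least 1 window of 17 of the 18 genes (94.4%), against 41.1% of 27025 genes, and the GC box GGGCGG in 17 (94.4%) against 38.2%. TCACNCCAC was present in Hmgcs1 alone (5.56%), against 1.44% of all genes. These are matches of letters and no binding was measured. The motif shared by nearly all members therefore lies upstream of genes that were lower on the CR array and of genes that were higher.

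Fat synthesis had no shift as a list, with a median of -0.05 in CR minus AD, although Acly, which makes cytosolic acetyl-CoA, read 0.94, 0.65 and 0.40. Fasn, the fatty acid synthase, read 6.14, 6.11 and 6.30. Of 28 genes of fatty acid oxidation and ketone use, 17 lay above all genes in CR minus AD and 19 in CR minus RFR, with medians of 0.07 and 0.11. Decr1, an auxiliary enzyme for unsaturated fats, read -3.92, -3.66 and -3.18, the mitochondrial entry enzyme Cpt1a 0.12, -0.01 and 0.49, and the uncoupling protein Ucp2 -0.70, -0.75 and -0.24, each highest on the CR array. The insulin-responsive glucose transporter Slc2a4 read -1.16, -1.08 and -0.37.

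Large, abundant gene families shifted slightly and together on the RFR array, in a way that depended on the scaling. Respiratory chain genes lay below all genes in RFR minus AD in 27 of 32 cases, with a median of -0.09 that became 0.02 under quantile scaling. Ribosomal protein genes did in 26 of 33, with a median of -0.13 that became 0.08, and glycolysis genes in 19 of 25, with one of -0.08 that became 0.02. No direction can be given to these 3 families in RFR minus AD. In CR minus RFR, 28 of 32 respiratory chain genes and 26 of 33 ribosomal protein genes lay above all genes, with medians of 0.12 and 0.18 that became 0.03 and 0.07 under quantile scaling.

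Stress and folding genes differed by gene and not by list. The cytosolic chaperone Hsph1 read 5.88, 5.59 and 5.27 and Hsp90aa1 7.24, 6.82 and 6.70, highest on the AD array, while Hspa4 read -0.55, -0.32 and 0.00. In the endoplasmic reticulum, Sdf2l1 read 1.29, 0.83 and 0.43 and the calcium-binding chaperone Calr 2.71, 2.90 and 3.38, and Canx was low on the RFR array alone at 5.85, 5.04 and 5.66. List medians were between -0.13 and 0.00 in all comparisons of both chaperone lists.

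Genes of the meninges and of fibroblasts, cells of the brain's coverings and vessel sheaths, were higher on the CR array than on both others. Their medians were the largest of the 57 lists with 5 or more measured members in each comparison of CR. All 17 measured members lay above all genes in CR minus RFR, within 1 slide, with a median of 0.75, and all 17 in CR minus AD with one of 0.73. In RFR minus AD 10 lay above and 7 below, with a median of 0.06 that was -0.03 under normexp background correction. At least 1.5-fold higher were 11 of 17 in CR minus AD, where 4.9% of all genes were. At least 2-fold higher were 7 of 17 in CR minus AD, where 0.647% of all genes were, and 5 of 17 in CR minus RFR, where 0.23% were. Slc22a6, an organic anion transporter of arachnoid cells, read -3.02, -2.45 and -0.85. Aldh1a2, which makes the retinoic acid released by the meninges, read -1.52, -1.93 and -0.49. Ogn, a small matrix proteoglycan, read -2.32, -1.90 and -0.68, and the GABA and taurine transporter Slc6a13 -0.72, -0.67 and 0.44. Slc13a4, a sulfate transporter, read 0.21, 0.29 and 1.58, and Ptgds, the prostaglandin D synthase, 4.97, 5.45 and 6.28. The fibrillar collagen Col1a1, at -0.37, -0.73 and -0.32, and Bgn, with a CR minus RFR of 0.40, were at the low end of the list.

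These genes were scarce in hypothalamus on every diet. Their summed signal was 5.43, 5.76 and 6.60, against 6.81 to 7.82 on the 6 arrays of the other regions, so the CR array was the highest of the hypothalamus and still under all others. Ptgds alone, at 4.97, 5.45 and 6.28, made up most of that sum on each hypothalamus array. Below all 6 other arrays lay 12 of the 17 genes on the AD array, 15 on the RFR array and 11 on the CR array, where 20.0%, 22.1% and 21.1% of all 11706 genes did. In the other regions the diet difference had the opposite sign, with medians of -0.21 in amygdala and -0.44 in prefrontal cortex for CR minus RFR. For CR minus AD they were -0.07 and -0.58. Whether the CR piece of hypothalamus held more of the brain's surface was not tested.

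**Figure D3:**
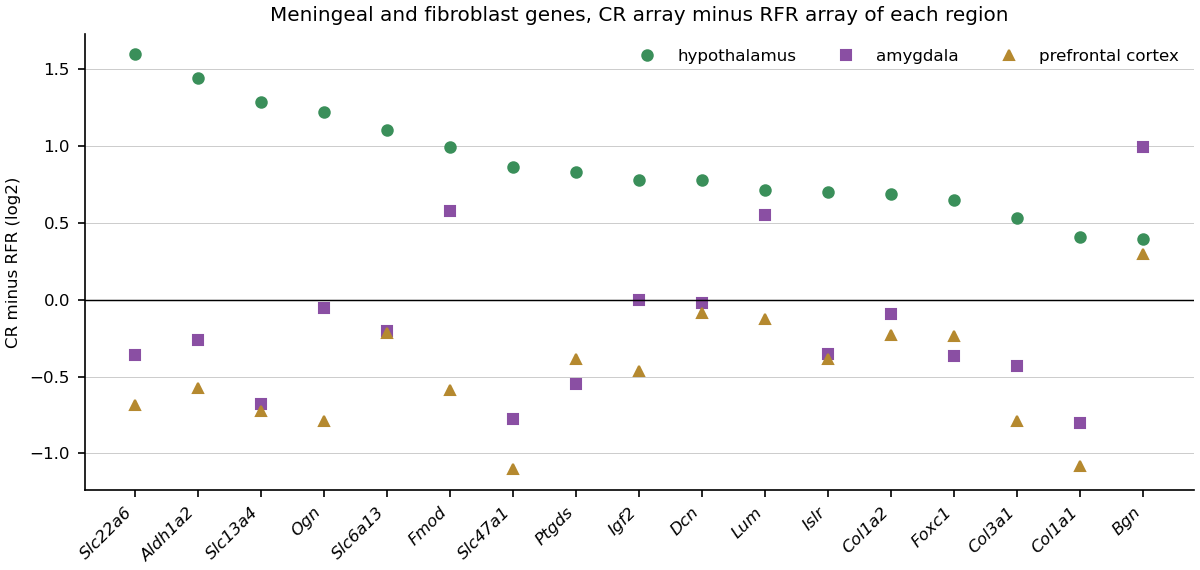
CR minus RFR (log2) of 17 meningeal and fibroblast genes in hypothalamus, amygdala and prefrontal cortex, 1 point per gene and region. All 17 hypothalamus points lie above the all-gene median, whereas the medians of amygdala (-0.21) and prefrontal cortex (-0.44) lie below theirs.

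Vascular genes were higher beside the meningeal ones on the CR array, at smaller size. Endothelial genes lay above all genes in 15 of 16 cases in CR minus AD (median 0.38) and in 14 of 16 in CR minus RFR (0.28), and were level in RFR minus AD (0.01). Their CR minus AD median was 0.21 in amygdala and 0.08 in prefrontal cortex. Their CR minus RFR median was 0.28 in amygdala, with 14 of 16 above, and 0.18 in prefrontal cortex, with 12 of 16 above. The efflux pump Abcb1a read -3.63, -3.60 and -2.78 and the tight junction gene Cldn5 2.61, 2.35 and 3.03. Of 11 mural cell genes 10 lay above in CR minus RFR (0.21), with the aminopeptidase Anpep at -1.97, -1.85 and -1.22, and the contractile gene Acta2 as the lowest of the list at 2.72, 2.24 and 2.13. Of 9 choroid plexus genes 7 lay above in CR minus AD (0.12). Ttr, the thyroid hormone carrier of that tissue, read -4.15, -3.39 and -2.69.

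Red cell genes were low on the RFR array. Hba-a1 read 1.23, -0.20 and 1.77, and Hbb-bt read 2.39, 0.73 and 2.66, so that RFR was lowest, by -1.43 and -1.66 against AD in that order. Hbb-bt has 4 bright probes, which gave -1.66 to -1.34 in RFR minus AD and 1.47 to 1.94 in CR minus RFR. In amygdala RFR minus AD was -1.31 for Hba-a1 and -1.01 for Hbb-bt, and in prefrontal cortex -0.18 and -0.51. Their CR minus RFR was 1.284 and 1.165 in amygdala and 0.87 and 0.87 in prefrontal cortex. Hbb-bt and its near copy Hbb-bs may share signal. The erythroid enzyme Alas2 was well above background on the AD and CR arrays, at -3.95 and -3.81, and not on the RFR array. All mice were perfused, and how much blood each pool kept was not measured.

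Myelin genes were lower on the RFR array and level between CR and AD. In RFR minus AD 15 of 18 lay below all genes (median -0.19), in CR minus RFR 16 of 18 lay above (0.23), and in CR minus AD 9 lay on each side. The CR minus RFR medians of the same list were 0.46 in amygdala and 0.52 in prefrontal cortex. Cnp, the myelin phosphodiesterase, read 4.52, 4.00 and 4.26, and Mog, on the outer myelin surface, -0.48, -1.03 and -0.90. The tight junction gene Cldn11, at 1.64, 1.66 and 2.59, was high on the CR array and level otherwise. Of 7 precursor cell genes 5 lay below all genes in RFR minus AD, with a median of -0.29 that was -0.08 from the authors' deposited table. Pdgfra, the highest of them in that comparison, read 0.07, 0.14 and 0.73.

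Microglial genes had 10 of 13 members below all genes in RFR minus AD (-0.15) and 10 of 13 above in CR minus RFR (0.19). Tyrobp, the adaptor of Trem2, read 0.52, 0.56 and 1.43, while complement C1qa read 1.61, 1.13 and 1.18. Astrocyte genes had a median of -0.07 in RFR minus AD, which turned to 0.05 under normexp background correction and to 0.00 under quantile scaling. Gfap, the filament of reactive astrocytes, was past 2-fold lower on the RFR array at -2.08, -3.20 and -2.58 (0.409% of all genes were at least 2-fold lower in RFR minus AD), and the bicarbonate transporter Slc4a4 read -1.79, -1.43 and -2.35. Of the inflammatory chemokines, Ccl2 and Cxcl10 were well above background on the CR array alone. Among all genes, 345 were well above background on the CR array and not on the AD array, against 205 the other way. For CR and RFR these counts were 497 and 85, so 2 such genes do not set the chemokines apart.

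**Figure D4:**
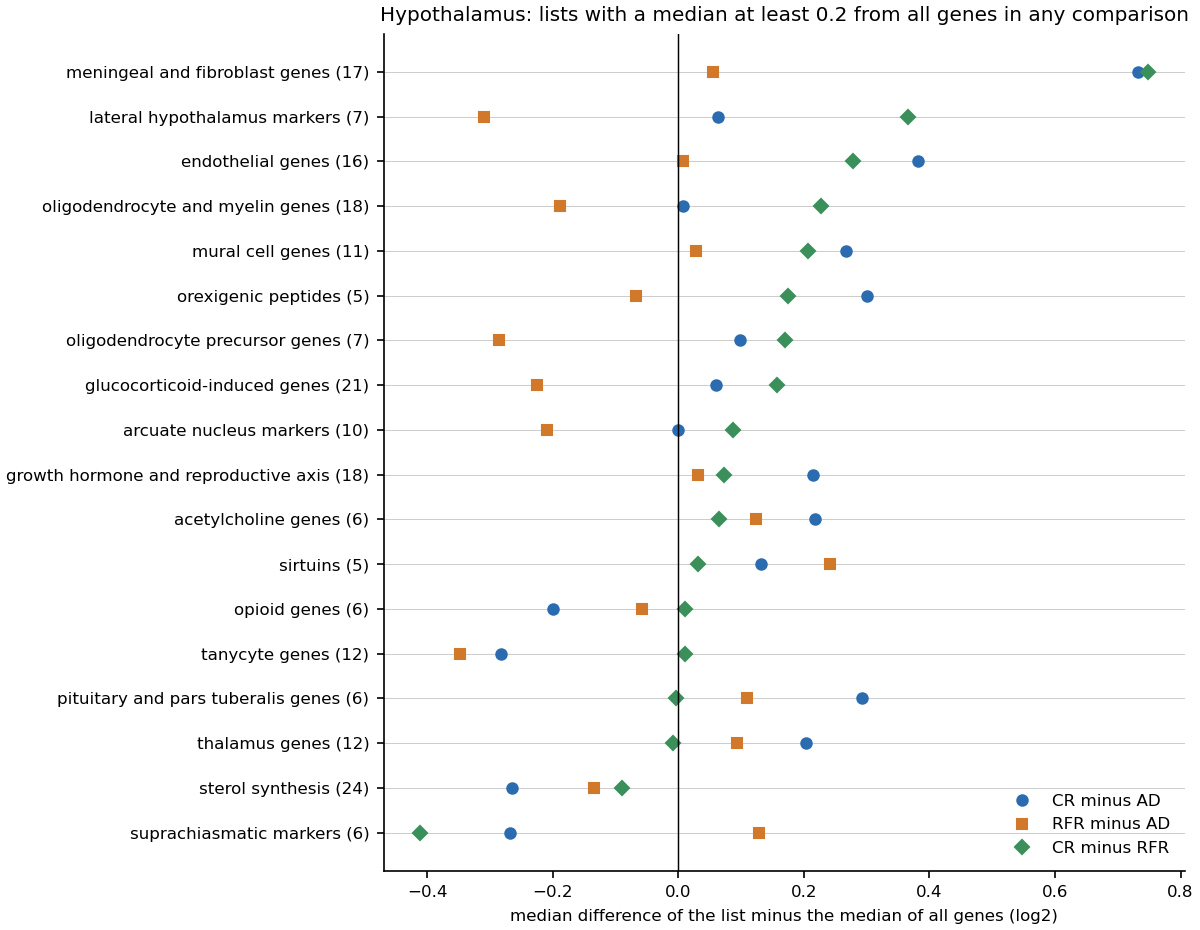
Median log2 difference above or below all genes for the 18 of 57 lists (5 or more members measured) with a median of at least 0.2 in size in any comparison, with the number of members in parentheses and 1 symbol per comparison. Meningeal genes stand at 0.73 and 0.75 in the comparisons of CR and at 0.06 in RFR minus AD, and tanycyte genes are low in both comparisons with AD and at 0.01 in CR minus RFR.

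Neuronal genes as a whole did not shift, with a pan-neuronal median of -0.02 in CR minus AD. Single synaptic genes did differ. Syn1, which tethers synaptic vesicles, read 3.98, 3.10 and 2.87, past 2-fold in CR minus AD, with -0.94 in prefrontal cortex and 0.55 in amygdala. Rims1, a scaffold of the release site, read -2.41, -3.33 and -3.40, and Snap25, of the fusion machinery, 4.67, 4.76 and 5.12. The GABA-making enzymes differed, Gad1 at 2.87, 3.05 and 3.36 and Gad2 at 2.90, 2.49 and 2.84, and the vesicular transporter Slc32a1 read 6.79, 6.65 and 6.85. Of the receptors, the alpha subunit Gabra2 read 0.28, 0.29 and -0.34. Gria2, an AMPA receptor subunit, read 3.49, 3.94 and 4.07, and the alpha-adrenergic receptor Adra1d -3.01, -3.68 and -3.97. Neurotrophin and related receptor genes lay below all genes in 6 of 7 cases in each comparison, with medians of -0.17, -0.10 and -0.10. Ntrk3 read 0.92, 0.53 and 0.15.

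Transcription factors that specify hypothalamic nuclei had single large members. Nr5a1, the master factor of the ventromedial nucleus, read -2.30, -1.85 and -2.96, and CR minus RFR was -1.12, where 0.298% of all genes were at least 2-fold lower. Barhl1, of the mammillary region, read -1.09, -1.66 and -2.03. Lhx8 read -3.06, -3.16 and -3.93 and Lhx9 -2.83, -2.68 and -2.07. Lhx6, a factor of inhibitory neurons, was well above background on the CR array alone (-1.61, against -6.43 and -6.75), at least 10.7-fold higher than on the AD array and at least 9.69-fold higher than on the RFR array. The gene was bright on 4 of the 9 arrays of the series.

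Over all genes, 159 of 11898 (1.34%) were at least 2-fold apart in CR minus AD, 81 of 11729 (0.691%) in RFR minus AD and 62 of 11747 (0.528%) in CR minus RFR. At the lower threshold of 1.5-fold, 4.9% were higher and 4.38% lower in CR minus AD, 1.32% and 1.74% in RFR minus AD, and 2.19% and 1.77% in CR minus RFR. Most genes past 2-fold were dim. With genes split into 4 equal groups from low to high mean signal, the groups held 119, 21, 11 and 8 of the 159, 70, 6, 4 and 1 of the 81, and 51, 6, 4 and 1 of the 62. Where at least 2 probes of a gene were bright, all of them passed 2-fold for 2, 1 and 3 genes in the 3 comparisons, against 109, 42 and 55 genes with at least 1 such probe. Beside Hbb-bt these were Slc6a13, with 1.01 to 1.16 in CR minus AD and 1.11 to 1.16 in CR minus RFR, Ago2, an Argonaute of microRNA silencing, with -1.46 to -1.06 in CR minus AD, and the channel-like gene Tmc4, with -1.33 to -1.03 in CR minus RFR. Ago2 read 0.07, -0.37 and -0.99 and Tmc4 -0.98, -0.36 and -1.39.

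**Figure D5:**
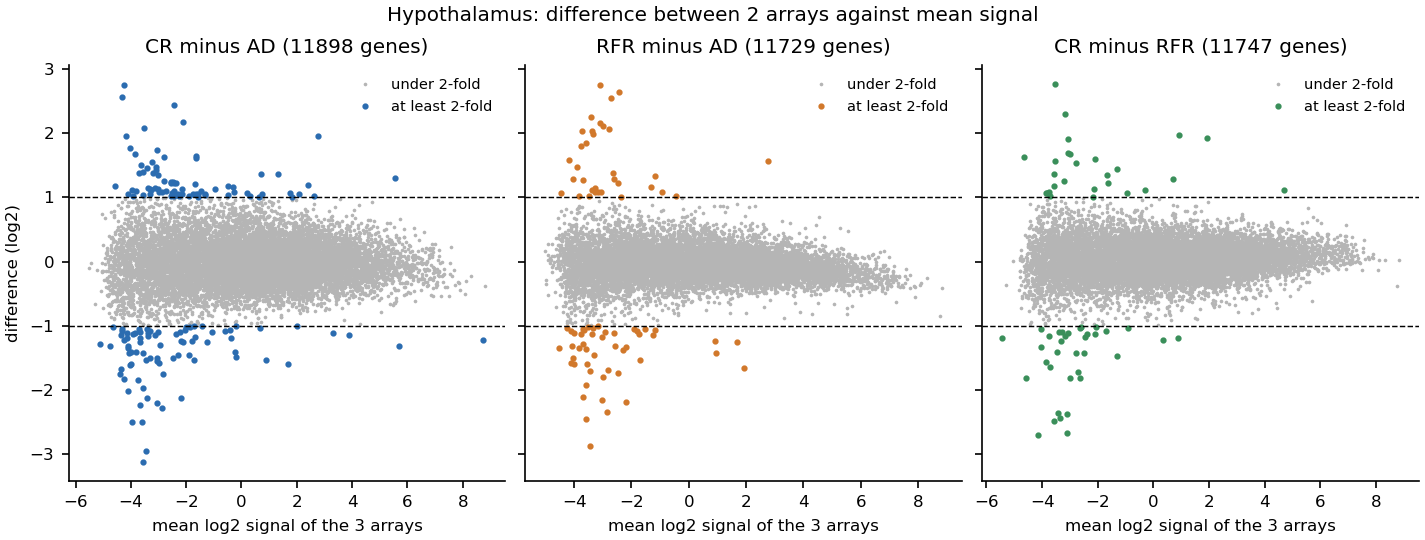
Difference between 2 hypothalamus arrays (log2, vertical) against mean log2 signal (horizontal) for every gene well above background on both, 1 panel per comparison, with dashed lines at 2-fold. The spread narrows with signal, and 119 of the 159 genes past 2-fold in CR minus AD lie in the lowest of 4 equal groups by signal.

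Among genes with signal above the median, 19 were past 2-fold in CR minus AD. This subset was chosen after its values were seen. In prefrontal cortex 17 of the 19 had the same sign, 7 of them past 2-fold. In amygdala 7 had the same sign, 1 of them past 2-fold. The largest CR minus AD was that of Slc4a7, which read 1.61, 3.17 and 3.56, with 1.75 in prefrontal cortex and -3.95 in amygdala. Next came Cyth4 at -1.60, with -1.26 and -0.17 in those regions, and Arid5b at -1.53, with -1.78 and -0.34. Ptms, the chromatin protein parathymosin, read 6.36, 5.66 and 5.04, with a CR minus AD of -1.25 in prefrontal cortex and 0.29 in amygdala. The mitochondrial leucyl-tRNA synthetase Lars2 read 9.43, 8.59 and 8.21, with -0.99 and 1.31. Khsrp, a splicing and RNA decay factor, read 4.52, 3.74 and 3.38 and was the one also lower in amygdala past 2-fold, with -1.09 and -1.13. On the higher side, Sacm1l, a phosphoinositide phosphatase, read 0.60, 1.45 and 1.97, with 1.40 in prefrontal cortex and -0.10 in amygdala. The splicing factor Srsf6 read 0.10, 0.71 and 1.11 and the RNA editing enzyme Adar 1.56, 2.04 and 2.61. The exceptions in sign in prefrontal cortex were both meningeal, Ptgds with -0.37 and Slc13a4 with -0.71.

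Among genes with signal above the median, 5 were past 2-fold in CR minus RFR. Hba-a1, Hbb-bt, Slc13a4 and Mt1 were higher on the CR array. Col7a1, the collagen of anchoring fibrils, was lower, at 0.71, 1.57 and 0.39, with -0.94 in amygdala and -0.80 in prefrontal cortex. Mt1 was higher in CR in those regions too, by 0.69 and 0.94.

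Among the dimmer genes with the largest CR minus RFR, several were set by a single array. Of 11706 genes measured in all comparisons, 16 were past 2-fold higher on the CR array than on both others and 2 lower, 15 higher and 2 lower on the RFR array, and 37 higher and 6 lower on the AD array. The pair low on the RFR array was Hba-a1 and Hbb-bt. The phosphatase Ptpn4 read -4.0, -4.68 and -1.92, and the Rab5 exchange factor Rin3 -3.59, -3.76 and -1.85, both above all 6 arrays of other regions (-4.37 to -3.59 and -3.89 to -3.23). Ranbp3l read -3.50, -3.73 and -2.03, which is below the other regions (-0.68 to -0.41). On the RFR array Impg2 read -1.30, against -4.05 on AD and -3.97 on CR and -5.25 to -3.86 elsewhere, but its other bright probe gave differences of only 0.40 in RFR minus AD and -0.59 in CR minus RFR. The receptor Cd300a read -1.87 there against -3.86 and -4.32. On the AD array Stoml3, of sensory neuron membranes, read -1.59 against -3.74 and -3.79, but its other bright probe gave differences of only -0.25 in CR minus AD and -0.31 in RFR minus AD. The heme-regulated repressor Bach1 read -0.74 there against -2.93 and -2.87. Tfpi, an inhibitor of clotting, was low there, at -4.03 against -1.96 and -2.40. Sphk1, which makes sphingosine 1-phosphate, was high on the CR array at -2.29, -2.02 and -0.68, and Igfbp6 at -3.84, -3.53 and -2.29.

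Genes bright on 1 array and dim on the other came on top, with folds as lower bounds taken against the lowest signal well above background. At least 2-fold by that bound were 78 genes on the CR array over AD and 76 the other way, 41 on RFR over AD and 69 the other way, and 77 on CR over RFR and 43 the other way. Beside Lhx6, the CR array alone showed Gapdhs, a sperm glycolysis enzyme, at least 8.66-fold over AD. The AD array alone showed Atp12a, a proton pump, at least 13.8-fold over CR and 12.1-fold over RFR. The RFR array alone showed the odorant receptor Olfr401, at least 16.1-fold over AD and 16.7-fold over CR. Of 34 such genes with the largest bounds, 8 had another probe on the array and 0 had another bright one.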

How the data were processed

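Each hypothalamus array held Cy3-labelled RNA of a pool of 4 mice. The deposited processed, spot and background signals are an intensity, made per the file headers with Agilent Feature Extraction 9.5.1.1 (protocol GE1-v5_95_Feb07), the processed signal background-subtracted and none scaled between arrays. The deposited flags are other columns of 0 or 1. A second deposited table gives, per array, a ratio to the region's AD array. In hypothalamus 99.3% to 99.4% of these values lay within 0.01 log2 of the scanner files' ratio times 1 constant.

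Each processed signal was divided by the 75th percentile over its array's noncontrol spots and put on the log2 scale, without outlier spots, and a probe's spots were averaged. Of 41174 probes 22951 matched a gene symbol through RefSeq accessions. The brightest probe stood for a gene. Differences used genes well above background on both arrays, and 2-fold was the threshold. With 1 array per group no test was made, and the number of arrays limits the precision. Alternatives were normexp background correction (offset 50, limma 3.58.1, R 4.3.3, planned on spot and background signals and run on their medians), quantile or median scaling, the deposited table, other filters on dim genes, the mean of a gene's probes, outliers kept and a 1.5-fold threshold. The remaining work used Python 3.11.15, numpy 2.4.6 and pandas 2.3.3, tested on simulated data.

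The members and the 61 gene lists were chosen with earlier results of these data known. Named genes are, per comparison, from the 15 largest differences in each direction, genes with all bright probes past 2-fold, genes on 1 array, genes with 1 array apart, and list members with the largest differences. Further list members are named for their role, chosen after their values were seen, and other genes so chosen are marked where they are named. Some members of the lists are not reported here.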

Additional observations from a re-analysis of the deposited data

Results flagged for a closer look

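In CR minus RFR, the hypothalamus and both other regions had opposite signs for 2 results. Aldh1a3, a retinaldehyde dehydrogenase, had a difference of 1.67 in hypothalamus (-3.16, -3.74 and -2.07 on the AD, RFR and CR arrays), -1.13 in amygdala and -1.01 in prefrontal cortex. The meningeal and fibroblast genes had a median of 0.75 above all genes in hypothalamus, -0.21 in amygdala and -0.44 in prefrontal cortex. With 1 array per region and diet, neither difference between regions was tested.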

How the results depend on the processing

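The 159 (CR minus AD), 81 (RFR minus AD) and 62 (CR minus RFR) genes past 2-fold became 71, 33 and 31 under normexp, 812, 598 and 552 with no filter on dim genes and 1104, 359 and 465 at 1.5-fold, and were 134 to 169, 65 to 83 and 49 to 67 under the other alternatives. The share of higher genes moved with the processing. In CR minus AD 48.4% became 76.3% from the authors' table and 35.2% under normexp, against 52.5% and 56.0% under quantile and median scaling, in RFR minus AD 40.7% became 53.8% and 30.3%, and in CR minus RFR 43.5% became 56.1% under median scaling and 59.6% with no filter. Of 94 differences of named genes past 2-fold, 68 stayed past it in every setting, 26 did not in some setting, and 0 changed sign. Among the list medians that changed sign were the following. With the mean of all probes, RFR minus AD was 0.007 for leptin and insulin signalling and -0.025 for the clock. Under quantile scaling RFR minus AD was 0.08 for orexigenic peptides, 0.021 for glycolysis, 0.017 for the respiratory chain, 0.084 for ribosomal proteins and 0.002 for astrocytes, and CR minus RFR was -0.005 for glycolysis and -0.021 for astrocytes. Under normexp RFR minus AD was 0.049 for astrocytes and for orexigenic peptides, -0.029 for meningeal genes and -0.085 for pituitary genes, CR minus AD was -0.094 for oligodendrocyte precursors and 0.051 for the clock, and CR minus RFR was 0.018 for the CRF system and 0.021 for hypothalamic transcription factors. For genes bright on all 9 arrays, pituitary genes had -0.263 in CR minus AD and -0.078 in RFR minus AD, and dopamine and histamine genes 0.007 in RFR minus AD. With no filter, pituitary genes had -0.164 in CR minus AD. The cause was not tested. No paired analysis was possible because each group has 1 array. Signal over background limits the dim genes, where most 2-fold differences lie, and 1 pool per diet leaves the spread between mice unmeasured.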

Other observations

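Probes known only by an AK identifier, which names a full-length cDNA, were often higher on the RFR array. In RFR minus AD, 290 of 3501 such probes (8.28%) were at least 2-fold higher and 30 lower, against 46 of 16258 probes (0.283%) that matched a gene symbol. The trait was not particular to AK probes, as 19 of 244 probes with a TC identifier (7.79%) were also at least 2-fold higher. Probes with BC, XM, NAP and ENSMUST identifiers had 1.22%, 0.806%, 1.7% and 0.709%. The AK probes were dim, with a median level of -1.96 against -0.06, but the shares also differed within a range of signal. In the lowest quartile of signal 14.2% against 0.836% were at least 2-fold higher, and in the middle range 2.9% against 0.135%. In CR minus RFR, 143 AK probes (3.82%) were at least 2-fold lower, against 0.411% of probes that matched a symbol. In CR minus AD, 80 AK probes (2.23%) were higher and 57 (1.59%) lower, against 0.685% and 0.806%. The RFR minus AD share of AK probes was 5.68% against 0.23% in prefrontal cortex, where both arrays shared a slide, and 3.29% against 1.48% in amygdala. Under normexp background correction, an alternative added after seeing the data, it was 0.885% against 0.08% in hypothalamus, and under quantile scaling, also added, 7.43% against 0.264%. The probes were chosen after their values were seen, their genes are not named here, and no cause was tested.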
